A study of Homo sapiens with 4 samples.

Results

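Cystatins are small proteins that block cysteine proteases, above all the papain-like cathepsins of lysosomes and the extracellular space. Their transcripts were measured by sequencing polyadenylated RNA from IMR90 cells, human lung fibroblasts, at passage 16. The genes described are the 7 cystatins CST1, CST2, CST3, CST4, CST6, CSTA and CSTB, found by gene symbol among 22679 named genes; each stood on 1 locus of its own, joined with no other gene. They were picked with their values in these libraries known, so those values are a description and carry no test.

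There was 1 library in each of 4 groups. The OIS group (oncogene-induced senescence) carried a retroviral ER:H-RasV12 fusion switched on with 10 nM tamoxifen for 8 days. The H3.3cs1 late group expressed a Flag-tagged, cleaved form of the histone variant H3.3 from a retrovirus and was taken 13 days after infection. The H3.3cs1 early group carried the same construct and was taken 3 days after infection. The growing group carried the empty retroviral vector pBabe and had been cultured for 13 days. OIS thus differs from growing in vector, tamoxifen and time of treatment, and H3.3cs1 early differs from it in time as well as construct; within these libraries such factors cannot be told apart. There are no replicates, so no difference below has a replicate check, an error or a p-value.

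Cystatins act by plugging the active-site cleft of a cathepsin with a conserved wedge. Type 1 cystatins, or stefins (CSTA and CSTB), lack a signal peptide and stay inside the cell, while type 2 cystatins (CST1, CST2, CST3, CST4 and CST6) are secreted. CST3 encodes cystatin C, made by nearly all nucleated cells and a strong inhibitor of cathepsins B, L and S. CST4, CST1 and CST2 encode cystatins S, SN and SA, best known from saliva. CST6 encodes cystatin M/E, an epidermal inhibitor of legumain and cathepsin L, CSTA encodes stefin A of skin and white blood cells, and CSTB encodes the widely expressed stefin B. Cathepsin L, one of their targets, is known to cleave histone H3 in mouse embryonic stem cells.

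Levels are in FPKM (fragments scaled by transcript length and by the size of the library), so they can be set against each other between genes. Read counts were not analysed here. From the steps between low values, depth relative to growing was put at roughly 82.9% in OIS, 76.8% in H3.3cs1 late and 95.9% in H3.3cs1 early. These steps reflect the scaling used for FPKM, so an unknown scaling between libraries would shift them. Total depth is unknown. The introduced oncogene's own gene, HRAS, was at 3153 FPKM in OIS, 41.9 in H3.3cs1 late, 49.8 in H3.3cs1 early and 47.4 in growing. All 10 fibroblast markers were at 1 FPKM or more in all 4 libraries, with sums of 5007 FPKM in OIS, 11449 in H3.3cs1 late, 6197 in H3.3cs1 early and 10818 in growing. By 2-fold or more, 6 of the 10 were lower in OIS than in growing and 0 higher. Of the 12183 genes that reach 1 FPKM in some library, 8.17% were lower by 2-fold or more and 9.13% higher. A value of exactly 0 can be a failed estimate: PLEC, a widely expressed cytoskeletal gene, was listed at 0 in OIS and H3.3cs1 early but at 133 FPKM in H3.3cs1 late and 128 in growing. Zeros are therefore given as listed and not read as absence.

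CST3, CST4, CST1 and CST2 lie side by side on chromosome 20, with CST6 on chromosome 11, CSTA on chromosome 3 and CSTB on chromosome 21. The promoter of CST3, the most abundant cystatin in every library, is shown because CST3 was the one member of the chromosome 20 group with a substantial level in growing cells. It was the only one of the 7 members with an entry in the RefSeq promoter table (GRCh38.p14). The 250 bases before the gene start, chr20:23637956-23638205 on the minus strand, read as follows, with the GC box letters GGGCGG in capitals.
CST3 promoter: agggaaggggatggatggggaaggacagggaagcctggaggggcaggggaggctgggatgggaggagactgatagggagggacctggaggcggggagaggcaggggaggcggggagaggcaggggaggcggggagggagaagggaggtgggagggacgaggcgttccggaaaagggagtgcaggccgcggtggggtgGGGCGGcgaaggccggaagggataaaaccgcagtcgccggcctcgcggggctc
This window was 70.8% G and C, against a median of 58.0% over 35116 promoter windows of the same length. It held 1 GC box (either strand), a motif found in 42.6% of the windows. The letters TATAAA (in 10.7% of windows), the AP-1 motif TGANTCA (in 6.57%) and the E-box CANNTG (in 61.8%) were not in this window on either strand. A match or its lack is a description of the letters and says nothing of a factor.

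CST1, CST2 and CST4 are close copies, so it was computed how much of their transcripts can be told apart (1 GENCODE transcript of each gene). Of the 50-base windows of CST1, 27.0% also occurred letter for letter in CST4 and 5.34% in CST2. For CST4, 27.4% of windows were shared with CST1 and 8.26% with CST2, and for CST2, 5.44% were shared with CST1 and 8.30% with CST4. With 100-base windows, 8.02% of CST1 was shared with CST4 and 0% with CST2. CST3 shared 0% of its 50-base windows with any of the other cystatins compared. CST6, CSTA and CSTB also shared 0% at that length. Neither read length nor the handling of reads that match several genes is known here, so the split of fragments among CST1, CST2 and CST4 is uncertain.

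In OIS, the chromosome 20 group stood far above growing: CST3, cystatin C, was 4.80-fold higher, and the salivary-type genes CST1, CST2 and CST4 were at measurable levels in OIS but near or at 0 in growing. CST6 was listed at 0 in OIS. The stefins CSTB and CSTA did not reach a 2-fold difference. Folds are differences in log2(FPKM + 1) and understate the change of low genes; a gene is counted as higher or lower, and called risen or fallen, at 2-fold or more. By that rule 4 of the 7 members were higher in OIS and 1 was lower, where 9.13% of the 12183 genes that reach 1 FPKM in some library were higher and 8.17% lower. The 4 include CST1, CST2 and CST4, whose split of fragments is uncertain, so they may not be separate observations. The median difference of the 7 members was 2.19, against 0.03 over all genes. Since the members were picked on these values, nothing is read from their share or median. Of the 7, 6 pass the 1 FPKM filter, CST1, CST2 and CST4 through OIS alone; CSTA does not pass.

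**Figure D1:**
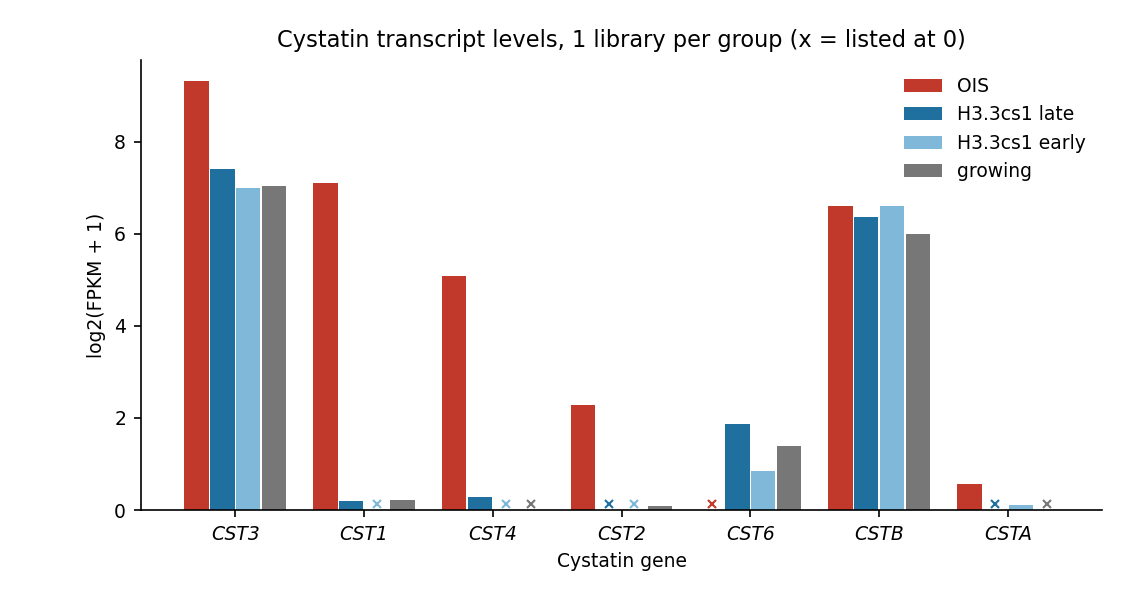
Transcript level of each cystatin as log2(FPKM + 1) on the vertical axis, with 1 bar for each of the 4 libraries and a cross where a gene is listed at 0. OIS has the tallest bar for CST3, CST1, CST4 and CST2, the CSTB bars are close together, and CST6 carries its cross in OIS.

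CST3 stood at 636 FPKM in OIS, 171 in H3.3cs1 late, 127 in H3.3cs1 early and 132 in growing. The OIS library is thus alone at a high level, while the other 3 lie close together. The difference of OIS from growing was 2.26 in log2(FPKM + 1), and 2.03 once every library was rescaled to an equal total over named genes. By level, CST3 ranked 128th of the 12183 genes in OIS, 434th in H3.3cs1 late, 454th in H3.3cs1 early and 541st in growing.

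CST1, cystatin SN, was listed at 138 FPKM in OIS, 0.143 in H3.3cs1 late, 0 in H3.3cs1 early and 0.155 in growing. Its difference of OIS from growing, 6.91 in log2(FPKM + 1) or 120-fold, was the 14th highest of all genes compared. CST1 was thus among the most abundant transcripts of OIS, in 582nd place by level, and near the floor elsewhere. With a pseudocount of 0.1 in place of 1 its difference was 9.08, so the size of the fold depends on how values near 0 are treated.

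CST4, cystatin S, was listed at 33.1 FPKM in OIS, 0.216 in H3.3cs1 late, 0 in H3.3cs1 early and 0 in growing. No fold is given against the growing value of 0. CST2, cystatin SA, stood at 3.83 FPKM in OIS, 0 in H3.3cs1 late, 0 in H3.3cs1 early and 0.0556 in growing, a 4.57-fold difference of OIS from growing. How much of the low CST2 level in OIS comes from fragments of CST1 or CST4 is unknown. The order of levels in OIS was CST3, CST1, CST4, CST2 within this group. CST1 was 4.17 times CST4 and 36.0 times CST2 there, ratios that rest on the uncertain division of shared fragments.

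CST6, cystatin M/E, was low throughout. It was listed at 0 FPKM in OIS, 2.64 in H3.3cs1 late, 0.807 in H3.3cs1 early and 1.62 in growing. It is the member counted as lower in OIS, and it rests on a listed 0, so no fold is given. Without genes listed at 0, CST1, CST2 and CST3 were higher and none of the 4 members that could then be compared was lower.

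Of the stefins, which stay inside the cell, CSTB alone reached 1 FPKM. CSTB, stefin B, stood at 97.2 FPKM in OIS, 81.3 in H3.3cs1 late, 97.0 in H3.3cs1 early and 62.8 in growing. All 3 induced libraries lay above growing, by 1.54-fold, 1.29-fold and 1.54-fold, none of them past 2-fold. CSTA, stefin A, was listed at 0.472 FPKM in OIS, 0 in H3.3cs1 late, 0.0828 in H3.3cs1 early and 0 in growing, below 1 FPKM in every library.

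The makeup of the family shifted with these values. The 7 members summed to 909 FPKM in OIS, 255 in H3.3cs1 late, 225 in H3.3cs1 early and 196 in growing. CST3 supplied 70.0% of that sum in OIS, 66.9% in H3.3cs1 late, 56.5% in H3.3cs1 early and 67.1% in growing. CST1, CST2 and CST4 together supplied 19.2% in OIS, against 0.141% in H3.3cs1 late, 0% in H3.3cs1 early and 0.107% in growing. CSTB supplied 10.7% in OIS, 31.9% in H3.3cs1 late, 43.1% in H3.3cs1 early and 32.0% in growing. CST3 and CSTB thus made up nearly all cystatin FPKM outside OIS, and in OIS the salivary-type genes exceeded CSTB.

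**Figure D2:**
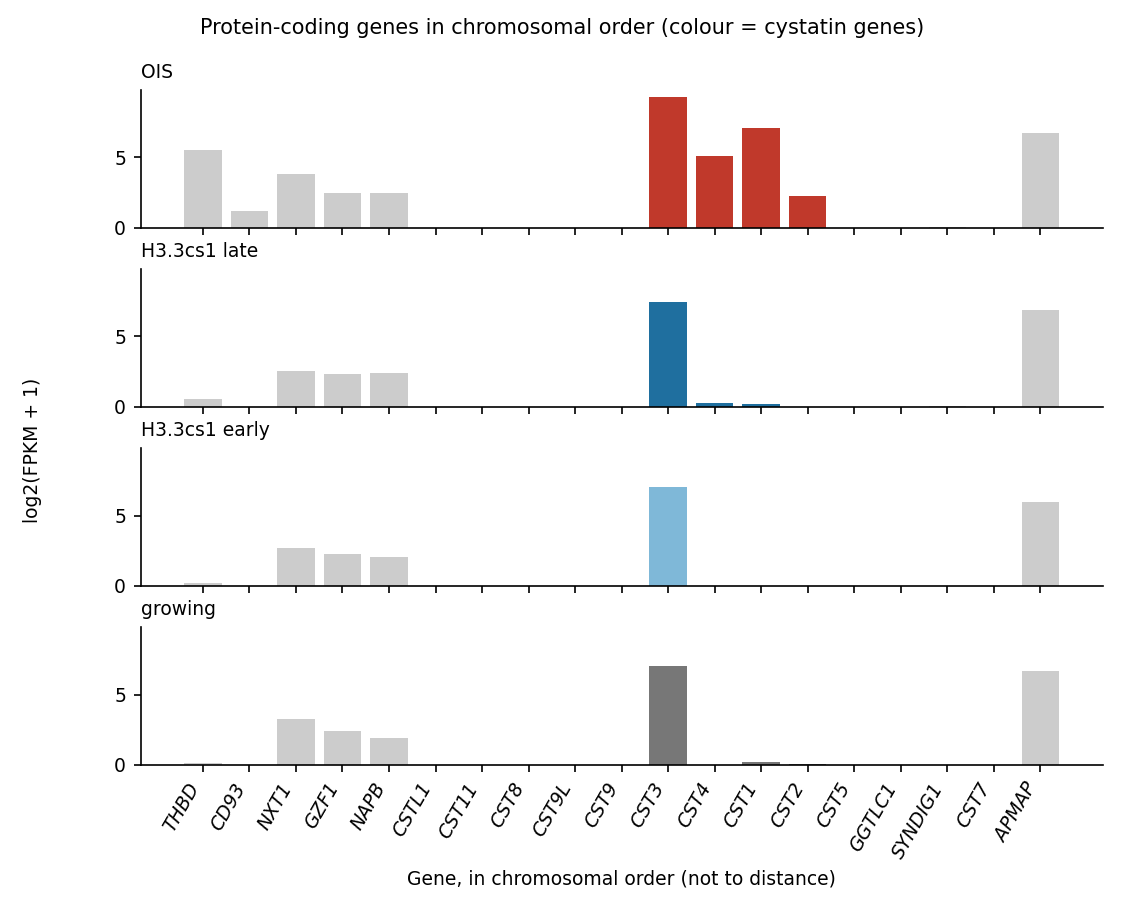
Levels of protein-coding genes around the cystatin cluster of chromosome 20 as log2(FPKM + 1), 1 panel per library, genes in chromosomal order and not spaced by distance; cystatin genes are in the library's colour (dark grey in growing) and other genes in light grey. CST3, CST4, CST1 and CST2 are neighbours and all carry signal in OIS, while the cystatins on either side of them are listed at 0 in each library.

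Along the chromosome (order from RefSeq, GRCh38.p14) the cystatins with signal in OIS were neighbours, and those around them were listed at 0. The 5 cystatins before CST3, CSTL1, CST11, CST8, CST9L and CST9, which are best known from the male reproductive tract, were listed at 0 in all 4 libraries. CST5, the next gene after CST2 and another salivary cystatin, was listed at 0 in all 4 as well, as was CST7, a leukocyte cystatin further on. APMAP, the gene after CST7, stood at 103 FPKM in OIS, 117 in H3.3cs1 late, 60.6 in H3.3cs1 early and 99.6 in growing. On the other side THBD, which encodes the anticoagulant receptor thrombomodulin, stood at 44.6 FPKM in OIS, 0.453 in H3.3cs1 late, 0.165 in H3.3cs1 early and 0.0803 in growing. CD93 next to it was at 1.31 FPKM in OIS and listed at 0 in the other 3. Between CD93 and the cystatins, NXT1 stood at 13.4 FPKM in OIS, 4.97 in H3.3cs1 late, 5.60 in H3.3cs1 early and 8.41 in growing, past 2-fold between OIS and H3.3cs1 late but not between OIS and growing. GZF1 and NAPB lay between 2.73 and 4.51 FPKM in the 4 libraries. THBD, CD93, NXT1, GZF1, NAPB and APMAP were chosen after their values were seen.

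THBD is known from vessel lining, so marker lists of other cell types are given beside these results. Of 10 endothelial markers, 4 were at 1 FPKM or more in OIS, 0 in H3.3cs1 late, 1 in H3.3cs1 early and 2 in growing. Their summed level was 22.2 FPKM in OIS, 1.33 in H3.3cs1 late, 2.41 in H3.3cs1 early and 3.11 in growing. Of the 4 that reach 1 FPKM in some library 3 were higher in OIS than in growing: CLDN5, at 11.6 FPKM in OIS and 0.178 in growing, TIE1, at 4.05 and 0.631, and ROBO4, at 4.47 and 1.19. Of all genes 9.13% were higher in that comparison. CLDN5 and TIE1 reached 1 FPKM in OIS alone and so were among the 4 only through that library. The other markers stayed near the floor. CDH5 was listed at 0 in all 4 libraries, and KDR and EMCN at 0 in OIS and 0.0125 FPKM in growing. PECAM1, at 0.115 FPKM in OIS, and ERG, at 0.136, were listed at 0 in growing and both H3.3cs1 libraries. VWF was at 0.258 FPKM in OIS and 0.0367 in growing. Of 10 epithelial markers, 2 were at 1 FPKM or more in OIS and 3 in each other library, with a summed level of 18.5 FPKM in OIS, 184 in H3.3cs1 late, 68.8 in H3.3cs1 early and 90.1 in growing, most of it KRT18. The epithelial genes CDH1, KRT5, KRT14, SFTPC and SCGB1A1 were listed at 0 in OIS. Of 10 leukocyte markers 1 reached 1 FPKM, in all 4 libraries: CD68, read from a locus joined with MPDU1, at 89.4 FPKM in OIS, 39.3 in H3.3cs1 late, 52.3 in H3.3cs1 early and 56.2 in growing. The leukocyte sums were 90.0 FPKM in OIS, 39.6 in H3.3cs1 late, 52.6 in H3.3cs1 early and 56.7 in growing, and PTPRC was at 0.00619 FPKM in OIS. The part of other cells in the cystatin values was not tested. Fewer cells of a type and less RNA per cell cannot be told apart in bulk RNA.

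CSTA and CST6 are known from the cornified layer of skin, so genes of that layer were looked at beside them. Of 22 cornified envelope and keratinocyte genes, 3 reached 1 FPKM in a library: KRT10, SBSN and DSP. In OIS against growing 0 of the 3 were higher and 1 was lower, where 9.13% of all genes were higher and 8.17% lower. The lower gene was DSP (desmoplakin), at 3.93 FPKM in OIS and 12.6 in growing. The list does not hold LCE1F, a late cornified envelope gene named for its pattern and so after its values were seen, which was at 132 FPKM in OIS, 0.161 in H3.3cs1 late, 0 in H3.3cs1 early and 0.397 in growing. SBSN, suprabasin, stood at 1.61 FPKM in OIS, 0.721 in H3.3cs1 late, 9.44 in H3.3cs1 early and 0.884 in growing, higher in H3.3cs1 early alone of the 3 induced libraries. Among 8 keratinocyte markers KRT5 and KRT1 were listed at 0 in all 4 libraries, and the summed level, nearly all KRT10, was 37.3 FPKM in OIS, 21.5 in H3.3cs1 late, 17.3 in H3.3cs1 early and 25.4 in growing.

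**Figure D3:**
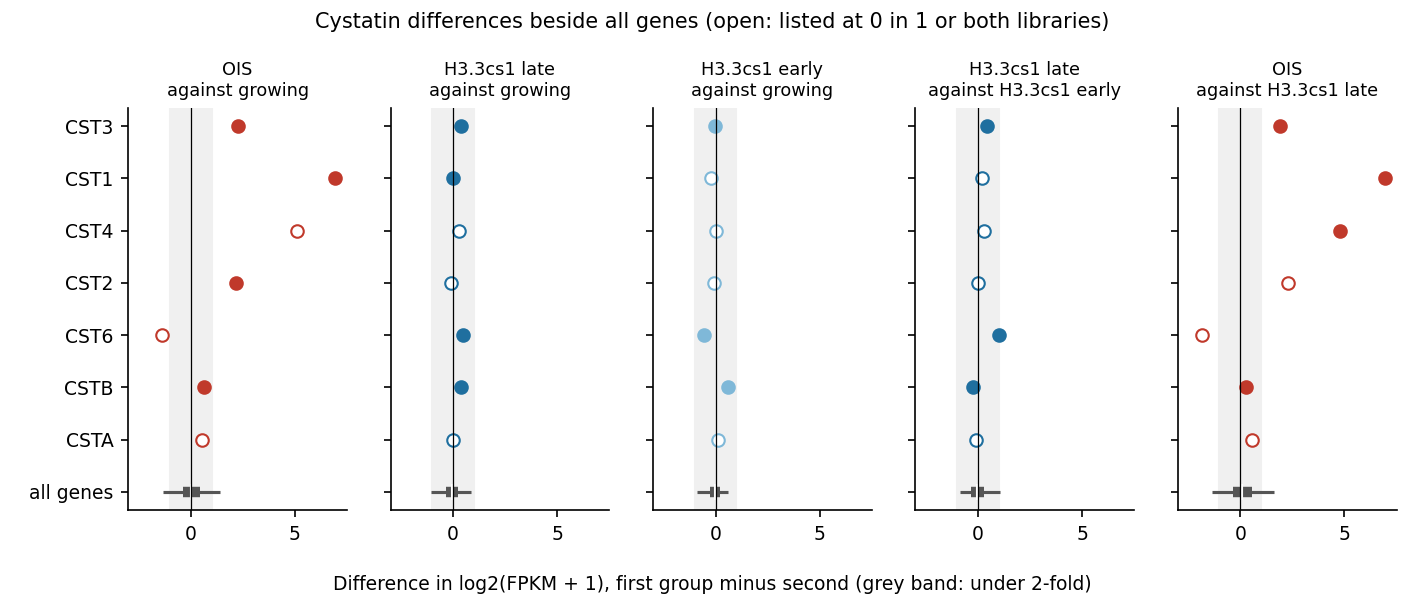
Difference of each cystatin in log2(FPKM + 1), first group minus second, in 5 comparisons; open points involve a listed 0, the grey band marks less than 2-fold, and the lowest bar spans the 5th to 95th percentile (thick part, quartiles) of the 12183 genes. CST3, CST1, CST4 and CST2 lie right of the band in both OIS panels, and all 7 genes lie inside it for H3.3cs1 late and early against growing.

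In H3.3cs1 late, no cystatin moved 2-fold from growing, where 3.51% of all genes were higher and 5.47% lower. CST3 was 1.29-fold above growing (0.37 in log2(FPKM + 1)), CSTB was also 1.29-fold above it (0.37), and CST6, at 2.64 FPKM against 1.62, was 1.39-fold above it. CST1, at 0.143 FPKM in H3.3cs1 late and 0.155 in growing, was near the floor in both, and CST4 and CST2 were each listed at 0 in 1 of these libraries. The median difference of the 7 members was 0.28, against -0.04 over all genes; these members were not chosen independently of the values.

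In H3.3cs1 early, again none of the 7 passed 2-fold, where 1.4% of all genes were higher and 3.96% lower. CSTB differed from growing by 0.62 in log2(FPKM + 1) and by 0.88 after rescaling to the same sum. CST6, at 0.807 FPKM in H3.3cs1 early and 1.62 in growing, differed by -0.54. CST3 was level with growing at -0.05, a sign that turned to 0.21 after rescaling. The rescaling uses named loci only, and unnamed loci held 57.9% of all FPKM in H3.3cs1 early and 49.0% in growing. Rescaling to the same sum moved the median of all genes to 0.19 in this comparison, from -0.02 as deposited, so these differences are best read against that shift. With the rescaled values, where 12227 genes pass the filter, 2.58% of all genes were higher and 2.76% lower.

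Between the H3.3cs1 times, 1 of 7 members passed 2-fold, where 5.47% of all genes were higher in late and 3.4% lower. That member was CST6, at 2.64 FPKM in H3.3cs1 late and 0.807 in H3.3cs1 early, 2.01-fold on the log2(FPKM + 1) scale and so barely past the threshold. After rescaling to the same sum its difference was 0.89 and it no longer passed, while the median of all genes moved to -0.26. Rescaling also changed the split of all genes, to 3.78% higher and 6.61% lower. CST3, at 171 FPKM in H3.3cs1 late and 127 in H3.3cs1 early, was 1.34-fold apart, and CSTB, at 81.3 and 97.0 FPKM, 1.19-fold, neither past 2-fold. The median of the 7 members was 0.19, against -0.04 over all genes. The empty vector was not analysed here at 3 days, so construct, recent infection and time in culture cannot be told apart in H3.3cs1 early against growing. Late against early shares the construct, but recent infection, length of expression and time in culture cannot be told apart there.

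OIS was also set directly against H3.3cs1 late. Of the 7 members 4 were higher in OIS and 1 lower, where 11.2% of all genes were higher and 8.51% lower. The 4 again include CST1, CST2 and CST4, whose split of fragments is uncertain. CST3, at 636 FPKM in OIS and 171 in H3.3cs1 late, differed 3.71-fold. CST1 differed by 6.93 in log2(FPKM + 1) and CST4, at 33.1 FPKM in OIS and 0.216 in H3.3cs1 late, by 4.81. CST2 was listed at 0 in H3.3cs1 late and CST6 was listed at 0 in OIS, so neither has a fold. CSTB, with 97.2 FPKM in OIS and 81.3 in H3.3cs1 late, was 1.19-fold apart. After rescaling to the same sum 8.19% of all genes were higher and 11.6% lower, and CST3 still differed by 1.65. The comparison of OIS with growing shares its OIS library with this one, so the 4 higher members are not a second observation. In that comparison rescaling gave 6.61% of genes higher and 10.9% lower, and moved the median of all genes to -0.16, from 0.03 as deposited.

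**Figure D4:**
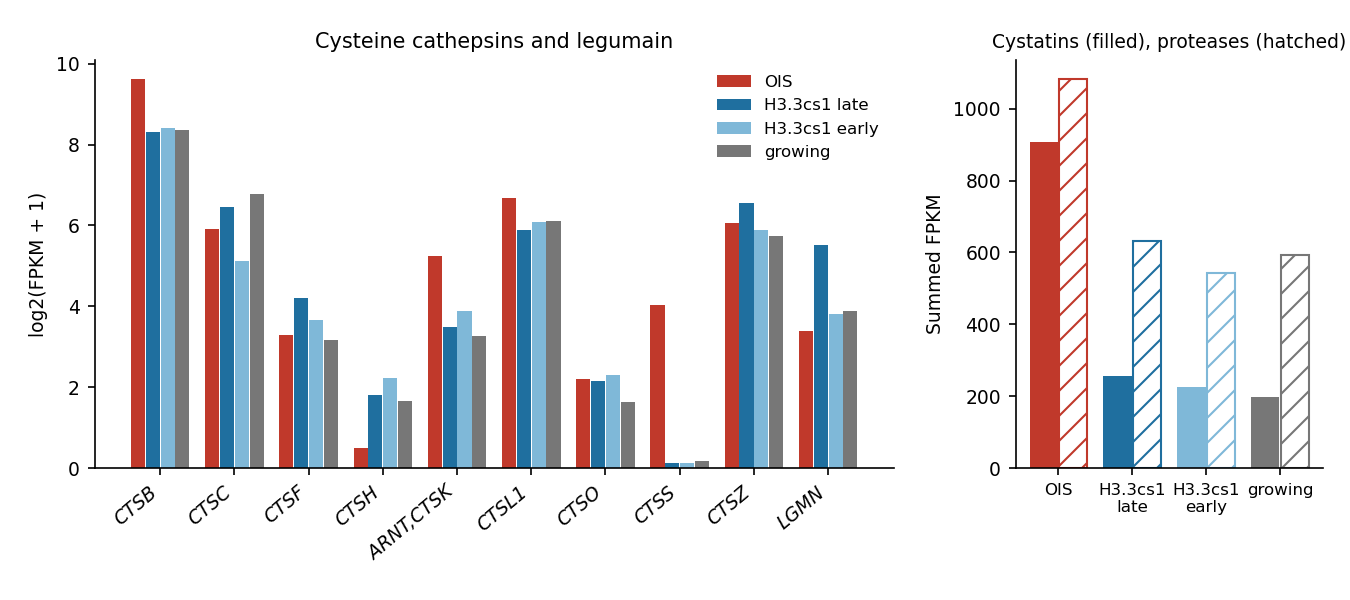
Left, log2(FPKM + 1) of the 10 cysteine cathepsin and legumain loci that reach 1 FPKM, 1 bar per library; right, summed FPKM of the 7 cystatins (filled) and of the 12 proteases (hatched). In OIS the cystatin sum is 909 and the protease sum 1082, against 196 and 592 in growing.

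The proteases that cystatins inhibit were read beside them. Of 12 cysteine cathepsins and legumain, 10 reached 1 FPKM in a library. In OIS against growing 3 of the 10 were higher and 1 was lower, where 9.13% of all genes were higher and 8.17% lower. CTSS, the cathepsin of antigen processing, stood at 15.5 FPKM in OIS, 0.0985 in H3.3cs1 late, 0.0823 in H3.3cs1 early and 0.125 in growing. CTSB, the abundant lysosomal cathepsin B, stood at 781 FPKM in OIS, 317 in H3.3cs1 late, 339 in H3.3cs1 early and 328 in growing, a 2.38-fold difference of OIS from growing. The joined ARNT,CTSK locus was at 36.6 FPKM in OIS and 8.65 in growing, a value that cannot be read as cathepsin K alone. CTSH, cathepsin H, was lower, at 0.399 FPKM in OIS and 2.14 in growing.

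CTSL1, the gene of cathepsin L, stood at 101 FPKM in OIS, 57.8 in H3.3cs1 late, 66.4 in H3.3cs1 early and 68.1 in growing, with no 2-fold difference. In H3.3cs1 late 2 of the 10 proteases were higher than in growing and 0 lower, where 3.51% of all genes were higher and 5.47% lower. LGMN, the asparagine-specific protease legumain and a target of CST6 and CST3, stood at 9.47 FPKM in OIS, 44.4 in H3.3cs1 late, 13.0 in H3.3cs1 early and 13.8 in growing. CTSF, cathepsin F, was at 17.4 FPKM in H3.3cs1 late and 7.93 in growing. In H3.3cs1 early 0 of 10 were higher and 1 was lower, CTSC (the peptidase that activates granule proteases), at 33.7 FPKM in H3.3cs1 early and 109 in growing. Of all genes 1.4% were higher and 3.96% lower in H3.3cs1 early than in growing. CTSZ, at 92.6 FPKM in H3.3cs1 late and 52.3 in growing, did not pass 2-fold, nor did CTSO, at 3.42 FPKM in H3.3cs1 late and 2.09 in growing. Between the H3.3cs1 times 2 of the 10 were higher in late, LGMN and CTSC, and 0 lower, where 5.47% of all genes were higher and 3.4% lower. In OIS against H3.3cs1 late 3 were higher and 2 lower, where 11.2% of all genes were higher and 8.51% lower. The median difference of the 10 from growing was 0.45 in OIS, 0.19 in H3.3cs1 late and 0.10 in H3.3cs1 early. CTSL2 and CTSW stayed below 1 FPKM in all 4 libraries.

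Set side by side, the cystatin sum was 0.84 of the protease sum in OIS, 0.40 in H3.3cs1 late, 0.41 in H3.3cs1 early and 0.33 in growing. The protease sums were 1082 FPKM in OIS, 632 in H3.3cs1 late, 543 in H3.3cs1 early and 592 in growing. These are ratios of transcript levels; protein and inhibitor activity were not measured. With the joined ARNT,CTSK locus left out the ratio was 0.87 in OIS and 0.34 in growing.

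Other genes of the cystatin superfamily and other inhibitors of cysteine proteases were taken from short lists. Of 12 other cystatin superfamily genes, 1 reached 1 FPKM: LXN, the carboxypeptidase inhibitor latexin, at 25.3 FPKM in OIS, 8.54 in H3.3cs1 late, 12.1 in H3.3cs1 early and 16.8 in growing. It differed 1.48-fold between OIS and growing and 2.76-fold between OIS and H3.3cs1 late. Of 4 other cysteine protease inhibitors, CAST, the calpain inhibitor calpastatin, lay between 49.4 and 60.7 FPKM in the 4 libraries. SERPINB4, a squamous-cell serpin and near copy of SERPINB3, was at 3.44 FPKM in OIS and listed at 0 in the other 3; its split from SERPINB3 is uncertain.

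Genes with the most similar pattern were sought among 9164 genes that reach 5 FPKM, by the root mean square distance of log2(FPKM + 1) over the 4 libraries after subtracting each gene's mean. Nearest to CST3 were DOCK6, an activator of small GTPases (distance 0.04; 32.8 FPKM in OIS and 5.82 in growing), FLJ42351 (0.05) and CYP2S1, a cytochrome P450 (0.06). Within a distance of 0.25 of CST3 lay 73 genes. Nearest to CST1 were LCE1F, a late cornified envelope gene at 132 FPKM in OIS and 0.397 in growing, SNORA28, a short RNA whose FPKM is unreliable, and CCL20, a chemokine at 169 FPKM in OIS and 0.140 in growing. Nearest to CST4 were EHF, an ETS-family factor of epithelia (38.2 FPKM in OIS and 0.117 in growing), THBD and CXCL10, a chemokine (39.0 in OIS and 0.0541 in growing). With 4 libraries, likeness of this kind rests mostly on the single OIS value, and nothing is read from it about shared function or control.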

How the data were processed

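RNA-seq of poly(A) RNA (TruSeq RNA v2) was deposited as 1 FPKM value for each of 26468 loci in 4 libraries of IMR90 cells, 1 per group. Per the submitters' processing notes, the tools were Cufflinks 2.1.1, TopHat2 2.0.3 and Bowtie2 and the build hg19; their settings, strand, read length, multiply matching reads and any scaling between libraries are not known here. The header words of the deposited files are offset by 1 column from the values, so samples were assigned by the deposition record, not by those words.

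Unnamed loci (2310) were left out; they held 47.4% of all FPKM in OIS, 48.0% in H3.3cs1 late, 57.9% in H3.3cs1 early and 49.0% in growing. Joined loci (822) were kept under their joined names, and lines that share a symbol were summed. Values were compared as log2(FPKM + 1) in Python 3.11.15 with numpy 2.4.6 and pandas 2.3.3; the 2-fold rule was tested on simulated data. Genes at 1 FPKM or more in a library (12183) form the background. With 1 library per group and no counts, no test was possible and no error is given. The members, the lists and the rules were chosen with earlier results of these data known. All 7 members are named, the proteases that reach 1 FPKM, up to 4 genes of each other list, and the 3 genes nearest in pattern to members that reach 5 FPKM and span at least 1 in log2(FPKM + 1). The marker lists give some further names. Gene order and the promoter come from RefSeq (GRCh38.p14), and no coordinate is given for the hg19 loci. In all, 8 processing alternatives were tried.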

Additional observations from a re-analysis of the deposited data

Results flagged for a closer look

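Against growing, CST6 differed by 0.47 in log2(FPKM + 1) in H3.3cs1 late and by -0.54 in H3.3cs1 early, opposite directions at the 2 times. CST3 differed by 0.37 in H3.3cs1 late and by -0.05 in H3.3cs1 early, and its early value turned to 0.21 after rescaling to the same sum. Both comparisons use the same growing library, each value comes from 1 library, and the difference between the times was not tested.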

How the results depend on the processing

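The counts of members past 2-fold moved as follows. With a pseudocount of 0.1, 1 member passed for H3.3cs1 late against growing (CST4, higher and listed at 0 in growing), 1 for H3.3cs1 early against growing (CST1, lower and listed at 0 in early) and 3 for H3.3cs1 late against early, where 0, 0 and 1 passed with a pseudocount of 1. In these comparisons 14.0%, 9.32% and 15.1% of all genes passed with a pseudocount of 0.1. With a pseudocount of 1, 8.99%, 5.37% and 8.87% did. For H3.3cs1 late against early, 0 passed with a filter at 5 FPKM and 0 after rescaling to the same sum. Of all genes, 9.89% and 10.4% passed in those settings. For OIS against growing, 3 passed in place of 5 with a filter at 5 FPKM and 3 with genes listed at 0 left out. The same counts, 3 and 3, hold for OIS against H3.3cs1 late. Fewer members enter those settings. There, 18.1% and 16.8% of all genes passed for OIS against growing, and 20.8% and 19.0% for OIS against H3.3cs1 late. Of the 9 genes named as nearest in pattern, 3 stayed nearest with a pseudocount of 0.1, and the cause was not tested. With genes listed at 0 left out, 3 stayed, those of CST3. In that setting CST1 and CST4 drop out themselves, each being listed at 0 in a library, so their neighbours were not sought. The other 40 checks of these counts, of the genes nearest in pattern and of the members' order within each library stayed within 1.5 times. Some of these could not move. Joined loci and repeated lines of a symbol do not touch the members, and rescaling a library keeps its order.

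Of the single-gene differences, sums and shares, 16 moved by over 1.5-fold, each at a pseudocount of 0.1, 311 did not, and no called difference changed sign. Many of the 311 could not move. The filters do not enter the members' differences, and leaving out genes listed at 0 only drops differences. Joined loci and repeated lines of a symbol do not touch the members. Only rescaling enters the sums, and no setting alters the shares. Of the 12183 genes a pseudocount of 0.1 put 1711 past 2-fold, against 1095 with a pseudocount of 1, for H3.3cs1 late against growing. The counts were 1135 against 654 for early, and 1841 against 1081 for late against early. They were 2981 against 2107 for OIS against growing, and 3271 against 2400 for OIS against H3.3cs1 late. No paired analysis was possible because each group has 1 library, so there was also no replicate to leave out. Total depth is unknown, which limits values under 1 FPKM, all those of CSTA among them.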
